A study of Bos taurus with 12 samples.

Results

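Small RNA of longissimus muscle, the large back muscle in which beef marbling is graded, was compared between d 92 and d 0 of time-on-concentrates (TOC) in the same 4 steers. The comparison takes 8 of the 12 libraries of the study, 4 at d 0 and 4 at d 92, chosen by the day on the high concentrate diet that the sample labels give, and the remaining 4 are from d 124. All steers were Angus-cross yearlings by 1 bull, and every group was untreated apart from the diet. The steers were sequenced because their intramuscular fat at the later times lay closest to the mean of the herd studied, so they are a chosen set of animals. Each biopsy was taken by needle from the center of the muscle at the same rib, on the left side at d 0 and on the right side at d 92, so that side, age and TOC cannot be told apart. There was no group kept off concentrates. The column codes of the table give the second day slightly earlier than the labels do, and the labelled day is used here.

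A microRNA (miRNA) is a short RNA cut from a hairpin precursor, which guides a silencing complex to matching messenger RNAs and lowers their translation or stability. Skeletal muscle has its own set of miRNAs, several of which lie within myosin heavy chain genes, and a biopsy also carries miRNAs of the blood cells, vessels, connective tissue and fat cells between the fibers. Fattening on concentrates is the stage at which cattle fill the fat cells within muscle, and the question of the comparison was which miRNAs differ once intramuscular fat has been laid down. Because a biopsy is bulk tissue, fewer cells of a type and less RNA per cell cannot be told apart in any value below.

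The table held 2712 features. Of these, 640 carried a miRBase precursor identifier (MI) and 2072 an Ensembl gene identifier (ENSBTAG), and the sources used here do not say what kind of RNA an Ensembl identifier stands for. A total of 1314 features varied over the 12 libraries, 431 from miRBase and 883 from Ensembl, while 1398 held the same value in all. Within the 8 libraries of d 0 and d 92 the numbers that varied were 418 and 829. Tests were run on 1002 features, 368 from miRBase and 634 from Ensembl, that lay above the lowest value, or floor, in at least 4 of the 12 libraries. Identifiers were paired with a miRNA name for 18 features only, so 350 of the miRBase features tested are described by identifier or by count. The name pairing came from the lists the study made on these same samples, and those 18 are not independent evidence of any direction. Mature sequences are not printed here.

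Values are normalized levels on a log2 scale, on which a difference of 1 is 2-fold and the floor is 0. Quantile normalization by the authors gave the libraries nearly the same distribution of levels, and the table does not give the reads behind them. The floor held different numbers of features in different libraries. At d 0, between 343 and 359 of the varying miRBase features lay above it, with a mean of 353.0 ± 7.66 (SD, n = 4), and at d 92 between 334 and 360, with a mean of 343.8 ± 11.4 (two-sided exact permutation test, p = 0.314). Levels under 2 were coarse. In each library they took only 2 or 3 distinct values above the floor, each shared by many features, and 129 to 251 features per library sat there.

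Before any single miRNA, 2 libraries were set apart for their high miRBase medians. In the d 0 library of steer 4 the median miRBase feature differed from its own mean over the 12 libraries by 0.46 and the median Ensembl feature by -0.32. For steer 1 at d 0 the same medians were 0.25 and -0.21, while in steers 2 and 3 at d 0 they had the opposite signs. The d 124 library of steer 1, which is in the same fit, also lay the other way. Its miRBase median minus Ensembl median was -0.47, and it was not set apart. The d 92 libraries were closer together. Their difference between the medians was -0.049 ± 0.145 (SD, n = 4), against 0.147 ± 0.567 at d 0. By a two-sided exact permutation test on these means, no difference between d 0 and d 92 was detectable (p = 0.486). Whether the spread differed was not tested. The counts of calls below are also given without the d 0 libraries of steers 1 and 4, an alternative chosen after seeing the data.

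**Figure D1:**
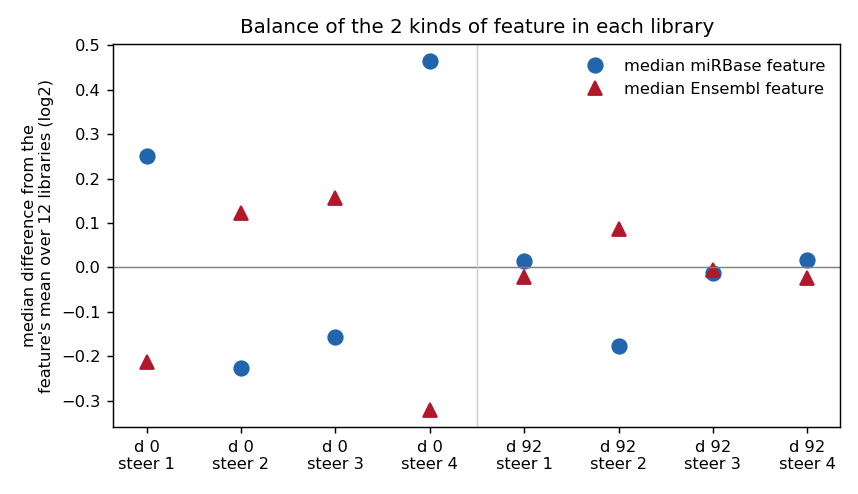
For each d 0 and d 92 library, the circle is the median over the tested miRBase features and the triangle the median over the tested Ensembl features of the difference from the feature's own mean over 12 libraries (log2, vertical axis). The d 0 libraries of steers 1 and 4 have a miRBase median minus Ensembl median of 0.465 and 0.785, those of steers 2 and 3 of -0.349 and -0.312, and the d 92 libraries span -0.264 to 0.04.

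No miRBase feature passed the adjusted test between d 92 and d 0. Of 368, 0 (0.0%) had an adjusted p under 0.05 in limma, a linear model with a shared estimate of the spread, and 18 (4.89%) had an unadjusted p under 0.05. The smallest adjusted p was 0.595. All 18 also differed by at least 1.3-fold, the limit the study set for its own list, and 13 of them (3.53%) were lower at d 92 and 5 (1.36%) higher. An unadjusted threshold of 0.05 is itself passed by about that share of features where none differ.

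More miRBase features were lower than higher at d 92, and the lean was small. The median miRBase difference was -0.09 (log2), with the middle of the distribution between -0.35 and 0.16, and 226 of 368 features (61.4%) were lower at d 92 at any size. It sat in the middle of the range of levels, with a median of -0.22 for features at mean levels of 2 to 4 and -0.19 at 4 to 8, beside 0.02 under 2 and -0.05 at 8 or more. Counting whole steers, 33 miRBase features (8.97%) were lower in 4 of 4 and 10 (2.72%) higher in 4 of 4. When each library was shifted so that its median miRBase feature was equal, the median difference moved to 0.03 and the calls to 6 higher and 10 lower. With the medians of both classes made equal, 8 were higher and 12 lower. Leaving out 1 library at a time kept more calls lower than higher in 7 of 8 cases, and the exception was the d 0 library of steer 4, without which there were 11 higher and 7 lower. Without both set-apart libraries there were 22 higher and 6 lower, with a median difference of 0.16. Those 2 were set apart for their high miRBase medians, so leaving them out raises the difference by construction.

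Large differences sat among features of low level. Of the 67 miRBase features with a mean level under 2 over the 8 libraries, 6 (8.96%) met the unadjusted limits, and of the 43 between 2 and 4, 6 (14.0%) did, 5 of them lower. From 4 to 8 the count was 4 of 91 (4.4%), all lower, and at 8 or more 2 of 156 (1.28%). The median SD within a time was also greater at low levels, 0.80 and 0.98 in the first 2 bins against 0.51 and 0.43 in the last 2. The 5 higher features had a median level of 1.41 and 3 of them touched the floor in some library, and the 13 lower ones had a median level of 3.42 with 5 touching it. By size alone, 12 miRBase features (3.26%) were at least 2-fold higher and 10 (2.72%) at least 2-fold lower. At most the difference reached 2.13 upward and 1.74 downward.

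**Figure D2:**
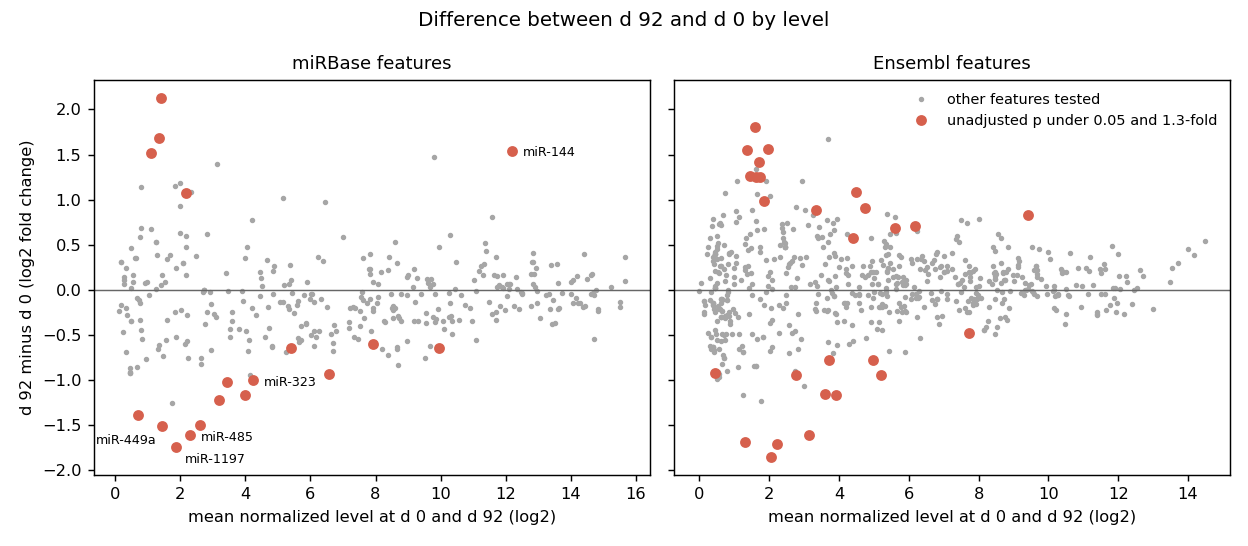
Each point is a tested feature with a recovered level, placed by its mean normalized level over the d 0 and d 92 libraries (log2, horizontal axis) and by the d 92 minus d 0 difference (log2, vertical axis), with miRBase features on the left and Ensembl features on the right. Large points met an unadjusted p under 0.05 and 1.3-fold, 18 on the left and 27 on the right, and most lie at low levels, miR-144 at a mean level near 12 being an exception.

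Among the 18 named miRNAs, 5 had an unadjusted p under 0.05, 4 of them lower at d 92 and 1 higher, and 0 an adjusted p under 0.05. Their differences ran from -1.74 to 1.54, with 8 higher and 10 lower. Beside limma, a two-sided exact permutation test over the 70 regroupings of 4 against 4 libraries is given for the miRNAs described singly, and its smallest possible p is 0.0286. It regroups the libraries freely and takes no account of the pairing by steer. Over the 16 sign changes within the 4 steers the smallest possible two-sided p is 0.125, so a paired exact test could not pass 0.05.

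The named miRNAs of the imprinted DLK1-DIO3 region, 3 in number, all had lower means at d 92. This region carries a long array of miRNAs expressed from the maternal chromosome, and in sheep a mutation there gives the heavily muscled callipyge hindquarter. Of the 63 miRNAs on the list for the region, only these 3 could be matched by name, so the count of 3 of 3 with an unadjusted p under 0.05 describes the study's choice and not the region. Their median difference was -1.61, beside -0.09 over all miRBase features tested.

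The level of miR-323 (MI0009797) at d 0 was 4.75, 4.15, 4.60 and 5.41 in steers 1 to 4, and at d 92 it was 3.29, 3.76, 3.90 and 3.95. The highest level at d 92 was under the lowest at d 0, and the within-steer differences were -1.46, -0.39, -0.70 and -1.46. Group separation of this kind was found for 9 miRBase features (2.45%) in this direction and for 3 (0.815%) in the other. The means were 4.73 ± 0.52 and 3.72 ± 0.30 (SD, n = 4), a difference of -1.0 with a standard error of 0.38, or 2.0-fold lower (limma unadjusted p = 0.0198, adjusted p = 0.864, exact permutation p = 0.0286). In the bovine RefSeq gene order its gene stands next to those of miR-1197 and miR-758.

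Beside it in that order, miR-1197 (MI0010470) stood at 2.77, 3.11, 1.80 and 3.28 at d 0 and at 2.15, 0.93, the floor and 0.93 at d 92. All 4 steers were lower at d 92, steer 1 least, although the value of steer 1 at d 92 was above that of steer 3 at d 0. Its mean went from 2.74 ± 0.66 to 1.00 ± 0.88 (SD, n = 4), a difference of -1.74 ± 0.65 (SE) and the most negative of the miRBase features (limma unadjusted p = 0.0181, adjusted p = 0.854, exact permutation p = 0.0571). With 1 library at the floor, the 3.34-fold figure depends on where the floor was set.

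For miR-485 (MI0009842), which lies further along the same array between miR-668 and miR-453, the steers did not move together. Levels were 3.06, 2.65, 3.42 and 3.28 at d 0 and 1.39, 3.27, 1.3 and the floor at d 92. Steers 1, 3 and 4 differed by -1.67, -2.13 and -3.28, while steer 2 was 0.62 higher and stood within the d 0 range. The difference was -1.61 ± 0.65 (SE), from 3.10 ± 0.34 to 1.49 ± 1.35 (SD, n = 4; limma unadjusted p = 0.0254, adjusted p = 0.908, exact permutation p = 0.0857).

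The levels of miR-449a (MI0009834) had the smallest p of the named miRNAs. This miRNA belongs to the miR-34 family, sits with miR-449b and miR-449c in an intron of CDC20B, and is known best from ciliated epithelium. At d 0 the steers read 1.92, 1.74, 1.80 and 3.28, and at d 92 they read 1.79, 0.93, the floor and the floor. Steer 1 differed by only -0.14 and its d 92 level overlapped the d 0 range, while steers 3 and 4 were listed at the floor at d 92. Means were 2.19 ± 0.74 and 0.68 ± 0.86 (SD, n = 4), a difference of -1.51 ± 0.46 (SE; limma unadjusted p = 0.00504, adjusted p = 0.595, exact permutation p = 0.0571). Since the values under 2 are coarse steps, most of these readings fall on levels shared by many other features.

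These 4 lower miRNAs were also fitted without the d 0 libraries of steers 1 and 4, of which steer 4 held the highest d 0 value of miR-323, miR-1197 and miR-449a. In that limma fit the differences were -0.65 for miR-323 (unadjusted p = 0.102), -1.45 for miR-1197 (unadjusted p = 0.154), -1.55 for miR-485 (unadjusted p = 0.104) and -1.09 for miR-449a (unadjusted p = 0.117). Direction held in all 4, and none kept an unadjusted p under 0.05 with the 2 d 0 libraries that remained. With the medians of both classes made equal in all libraries the differences were -0.88, -1.62, -1.49 and -1.38, each with an unadjusted p under 0.05. The study listed these 4 from the same samples, so the refits are not independent support.

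Of the blood cell miRNAs, miR-144 (MI0009744) had the only higher value among the named miRNAs with an unadjusted p under 0.05. It is made in red cell precursors from 1 transcript with miR-451, its neighbor in the bovine gene order. Levels were 12.28, 9.95, 11.01 and 12.50 at d 0 and 12.95, 14.51, 12.22 and 12.24 at d 92. Steers 1 to 3 were higher, by 0.66, 4.56 and 1.21, and steer 4 differed by -0.26, so that the groups overlapped. Steer 2 held both the lowest d 0 value and the highest d 92 value. The means were 11.44 ± 1.19 and 12.98 ± 1.07 (SD, n = 4), a difference of 1.54 ± 0.60 (SE), or 2.91-fold (limma unadjusted p = 0.0214, adjusted p = 0.893, exact permutation p = 0.171). Leaving out each library in turn gave between 1.03, without steer 2 at d 92, and 1.90, without steer 4 at d 0.

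Also of blood, miR-142 (MI0005011) is a miRNA of white cells and is used as a mark of them. It read 11.15, 9.85, 11.09 and 12.66 at d 0 and 12.04, 13.40, 10.88 and 11.68 at d 92. Here too steer 2 went furthest, 3.54 higher, steer 1 was 0.90 higher, and steers 3 and 4 differed by -0.21 and -0.98. The difference of 0.81 ± 0.56 (SE) was within the spread (limma unadjusted p = 0.166, adjusted p = 0.986, exact permutation p = 0.371), and it was 0.35 without steer 2 at d 92, 0.37 without steer 2 at d 0 and 1.3 without steer 4 at d 0. In steer 2 both blood cell miRNAs thus had their largest change, from the lowest level of any d 0 library to the highest of any d 92 library. The part of blood carried in the biopsies was not tested, as 4 of the 6 miRNAs on the blood list had no matched name.

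A liver miRNA, miR-122 (MI0005063), is the most abundant miRNA of hepatocytes and acts on cholesterol and fatty acid metabolism, and it also travels in plasma. Its muscle levels were 10.23, 8.01, 8.14 and 9.89 at d 0 and 9.46, 9.35, 9.95 and 13.36 at d 92. Steers 2, 3 and 4 were higher at d 92 by 1.34, 1.82 and 3.47 and steer 1 differed by -0.77. The library of steer 4 at d 92 stood apart, and the other d 92 libraries lay within the d 0 range. The difference was 1.47 ± 0.80 (SE), or 2.76-fold, from 9.07 ± 1.15 to 10.53 ± 1.90 (SD, n = 4; limma unadjusted p = 0.0864, adjusted p = 0.986, exact permutation p = 0.257). Without steer 4 at d 92 the difference was 0.52. With a term for the steer in the model the unadjusted p was 0.0424 and the adjusted p 0.831. No other miRNA of the liver list of 4 had a matched name, so whether the list moved with it was not tested.

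Leaving out the d 0 libraries of steers 1 and 4 gave larger differences for these 3, and those libraries held their highest d 0 values. In limma the differences were then 2.46 for miR-122 (unadjusted p = 0.0265), 2.50 for miR-144 (unadjusted p = 0.00251) and 1.53 for miR-142 (unadjusted p = 0.0249). The adjusted p stayed above 0.05 in each. Leaving out the highest d 0 values raises these differences by construction, so the smaller p-values are not support for a rise.

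The slow fiber miRNA miR-208b (MI0009774) was the only one of 8 muscle-enriched miRNAs on the list that could be matched by name, so the tissue label could be checked on 1 marker. It is encoded within MYH7, the slow myosin heavy chain gene, and the bovine RefSeq order lists it next to MYH7 and MYH6. All 8 libraries held it well above the floor, at 10.40, 9.59, 10.26 and 11.06 at d 0 and 10.32, 10.12, 8.68 and 10.48 at d 92. Steer 3 differed by -1.58 and the other steers by -0.08, 0.53 and -0.58. The difference of -0.43 ± 0.38 (SE) was within the spread (limma unadjusted p = 0.280, adjusted p = 0.986, exact permutation p = 0.486), and it was -0.02 both without steer 3 at d 92 and without the d 0 libraries of steers 1 and 4.

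From the X-linked cluster that holds miR-500, miR-502 and miR-660, miR-362-5p (MI0009811) had levels of 10.65, 10.92, 10.77 and 11.62 at d 0 and 10.92, 10.96, 9.84 and 11.43 at d 92. Of the steers, 2 were higher and 2 lower, and the difference was -0.20 ± 0.32 (SE; limma unadjusted p = 0.541, adjusted p = 0.986, exact permutation p = 0.686). For miR-2411 (MI0011456) the readings were 4.75, 5.42, 5.6 and 5.59 at d 0 and 5.58, 5.6, 5.12 and 5.49 at d 92. Again 2 steers were higher and 2 lower, with a difference of 0.11 ± 0.31 (SE; limma unadjusted p = 0.741, adjusted p = 0.996, exact permutation p = 0.686). For miR-362-5p and miR-2411 alike, the sign of the mean difference turned when single libraries were left out. The study listed miR-2411 as lower at d 92, while the mean difference here was 0.11.

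The miR-196 family, encoded in the HOX gene clusters that set position along the body axis, had 3 named copies of 5 miRNAs on the list. Their means were lower at d 92, with differences of -0.83 for miR-196a-1, -0.76 for miR-196a-2 and -0.72 for miR-196b, each lower in 3 of 4 steers, and the smallest unadjusted limma p was 0.0953, for miR-196b (adjusted p = 0.986). Copies of miR-196a share their mature form, and the sources used here do not say how reads were divided between them. Of the 8 named miRNAs not described singly, these 3 included, differences ran from -0.83 to 0.60, with 0 at an unadjusted p under 0.05. No member of the let-7, fat cell or vessel and stromal lists was matched by name, so those lists have no value here.

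**Figure D3:**
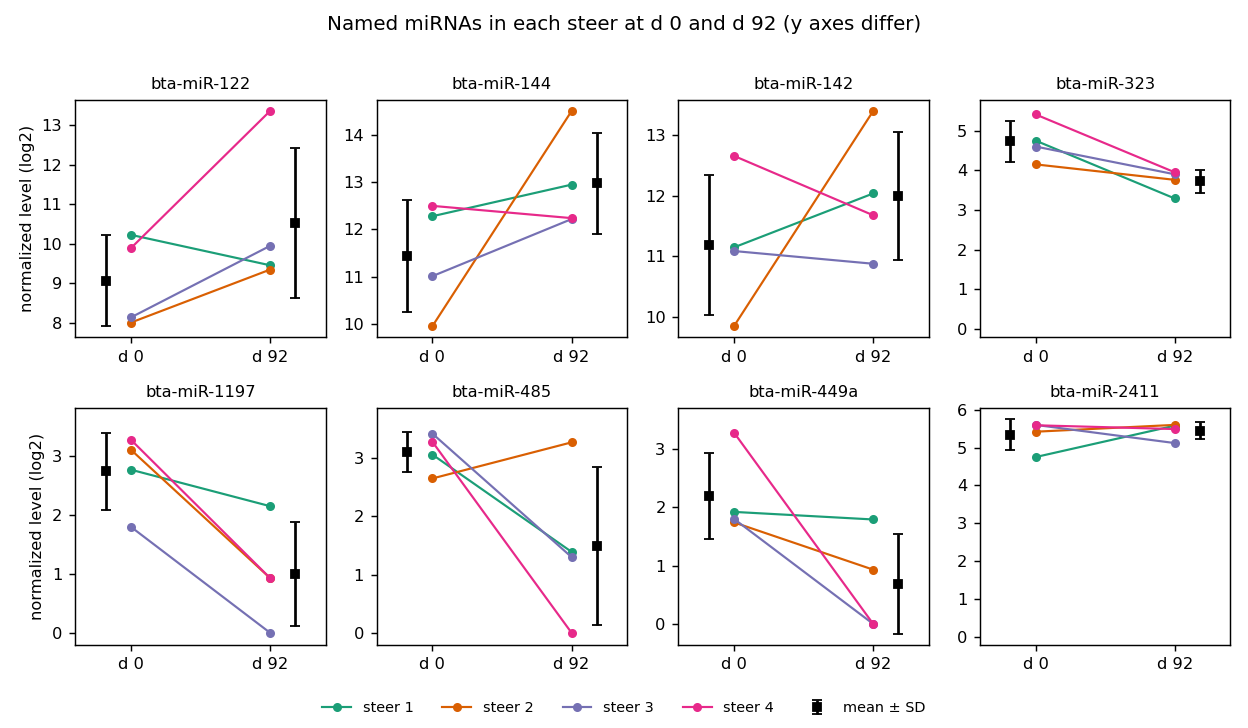
Levels of 8 named miRNAs at d 0 and d 92 (normalized level, log2, vertical axis, with a scale of its own in each panel), 1 line per steer, with squares for the mean and bars for the SD over 4 steers. The lines of miR-323 all go down without overlap between the times, those of miR-122 and miR-144 cross, and steer 4 at d 92 stands alone at 13.36 for miR-122.

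Of the 18 miRBase features with an unadjusted p under 0.05, 13 had no matched name. Those with the smallest p in each direction are given by identifier. MI0009750 read 0, 0.04, 1.34 and 0 at d 0 and 2.15, 2.63, 1.3 and 3.83 at d 92. Near or at the floor in 3 steers at d 0, it was well above it in the same 3 at d 92, while steer 3 differed by -0.05. The difference of 2.13 ± 0.56 (SE) was the largest upward and had the smallest p of all 1002 features (limma unadjusted p = 0.0017, adjusted p = 0.595). MI0009729 read 0.95, 1.06, 0 and 0 at d 0 and 2.85, 1.90, 2.37 and 1.62 at d 92. All 4 steers were higher and the times did not overlap, with a difference of 1.68 ± 0.53 (SE; limma unadjusted p = 0.00611, adjusted p = 0.595).

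The 2 lower features of smallest p had higher levels and moved more evenly between steers. For MI0009827 the levels were 4.75, 4.33, 4.92 and 4.24 at d 0 and 3.55, 3.48, 3.41 and 3.12 at d 92, and the within-steer differences ran from -0.85 to -1.51. No d 92 value reached the d 0 range, and the difference was -1.17 ± 0.33 (SE), or 2.25-fold lower (limma unadjusted p = 0.00331, adjusted p = 0.595). For MI0009855 the levels were 6.90, 6.48, 7.11 and 7.66 at d 0 and 5.97, 5.91, 6.15 and 6.41 at d 92, with within-steer differences from -0.57 to -1.26. The times again did not overlap, and the difference was -0.93 ± 0.27 (SE), or 1.90-fold lower (limma unadjusted p = 0.00426, adjusted p = 0.595). Without the d 0 libraries of steers 1 and 4 the differences were -1.23 (limma unadjusted p = 0.00323) and -0.69 (limma unadjusted p = 0.0483). With the median of each class made equal they were -1.04 and -0.80, and these 2 kept their direction and an unadjusted p under 0.05 in both. They were picked for the smallest p in the same libraries, so these refits are not independent support.

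At the floor, 1 miRBase feature separated the times. MI0011438, singled out after its values were seen, was above the floor in all 4 d 0 libraries, at 0.95, 1.06, 2.66 and 0.89, and listed at the floor in all 4 d 92 libraries. In steers 1, 2 and 4 the d 0 reading was on the first or second step above the floor. No test or fold is given, since the feature was chosen for this pattern and its d 92 levels have no value above the floor. In the other direction 0 miRBase features went from the floor in all 4 d 0 libraries to a value in all 4 d 92 libraries. Of the 431 miRBase features that vary, 14 were at the floor in all d 0 libraries and above it in some at d 92, and 35 the reverse. For the 883 Ensembl features that vary these numbers were 69 and 111. Any value above the floor counts here, and the lowest step of the d 0 library of steer 2 was only 0.04. Features on that step thus counted as present at d 0, and these numbers were not repeated with a higher limit. Counted per library, the varying Ensembl features above the floor numbered 596 ± 38.7 at d 0 and 580.5 ± 29 at d 92 (SD, n = 4; two-sided exact permutation test, p = 0.486). At least 1 above the floor, the miRBase numbers were 313.8 and 314.5 (exact permutation test, p = 0.943).

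Ensembl features were balanced the other way. Both classes share a normalized distribution in each library, so their leans are not independent. Of 634, 0 (0.0%) had an adjusted p under 0.05 in limma and 27 (4.26%) an unadjusted p under 0.05, all of at least 1.3-fold, 15 higher (2.37%) and 12 lower (1.89%) at d 92. Their median difference was 0.06 and 278 of 634 (43.8%) were lower at any size. Higher in 4 of 4 steers were 40 (6.31%) and lower in 4 of 4 were 25 (3.94%). The split depended on the scaling and on the libraries, as for miRBase features. It was 18 higher and 6 lower with the median miRBase feature made equal, 15 and 15 with the medians of both classes made equal, and 10 and 26 without the d 0 libraries of steers 1 and 4, where the median difference was -0.13. Without steer 2 at d 0 the count was 41, with 27 higher.

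By level, the Ensembl calls were 10 of 183 (5.46%) under 2, 8 of 105 (7.62%) from 2 to 4, 8 of 201 (3.98%) from 4 to 8 and 1 of 141 (0.709%) at 8 or more. The higher calls were mostly low, 8 of the 15 under a level of 2, and 7 of the 12 lower ones lay between 2 and 4. At least 2-fold higher were 16 (2.52%) and at least 2-fold lower 9 (1.42%). Non-overlapping times were found for 5 features higher (0.789%) and 7 lower (1.10%).

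Of the Ensembl features, ENSBTAG00000042604 read 0.95, 0.04, 1.80 and 0 at d 0 and 0.91, 1.90, 3.90 and 3.31 at d 92. Steer 1 differed by -0.05, and the others were higher by 1.86 to 3.31, with a difference of 1.81 ± 0.57 (SE; limma unadjusted p = 0.00654, adjusted p = 0.595). ENSBTAG00000042555 read 0.95, 0, 2.15 and 0.89 and then 3.42, 1.90, 1.94 and 2.42, higher in 3 of 4 steers (difference 1.42 ± 0.47, SE; limma unadjusted p = 0.00907, adjusted p = 0.699). In both, the d 0 and d 92 ranges overlapped. Without the d 0 libraries of steers 1 and 4 the differences were 1.58 (limma unadjusted p = 0.0682) and 1.34 (limma unadjusted p = 0.0328).

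Of the lower ones, ENSBTAG00000042380 read 2.77, 1.74, 0.79 and 3.28 at d 0 and 0.91, 0.93, 0 and 0 at d 92, lower in 4 of 4 steers, with within-steer differences from -0.79 to -3.28 (difference -1.69 ± 0.48, SE; limma unadjusted p = 0.00305, adjusted p = 0.595). Its difference was -0.81 (limma unadjusted p = 0.131) without the d 0 libraries of steers 1 and 4, which held its highest values. ENSBTAG00000043806 read 5.03, 3.97, 4.33 and 4.59 and then 3.29, 3.27, 3.41 and 3.31. Its d 92 levels lay close together and all under the d 0 range, with means of 4.48 ± 0.44 and 3.32 ± 0.06 (SD, n = 4) and a difference of -1.16 ± 0.33 (SE; limma unadjusted p = 0.00336, adjusted p = 0.595). It was -0.83 (limma unadjusted p = 0.013) without those 2 libraries.

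**Figure D4:**
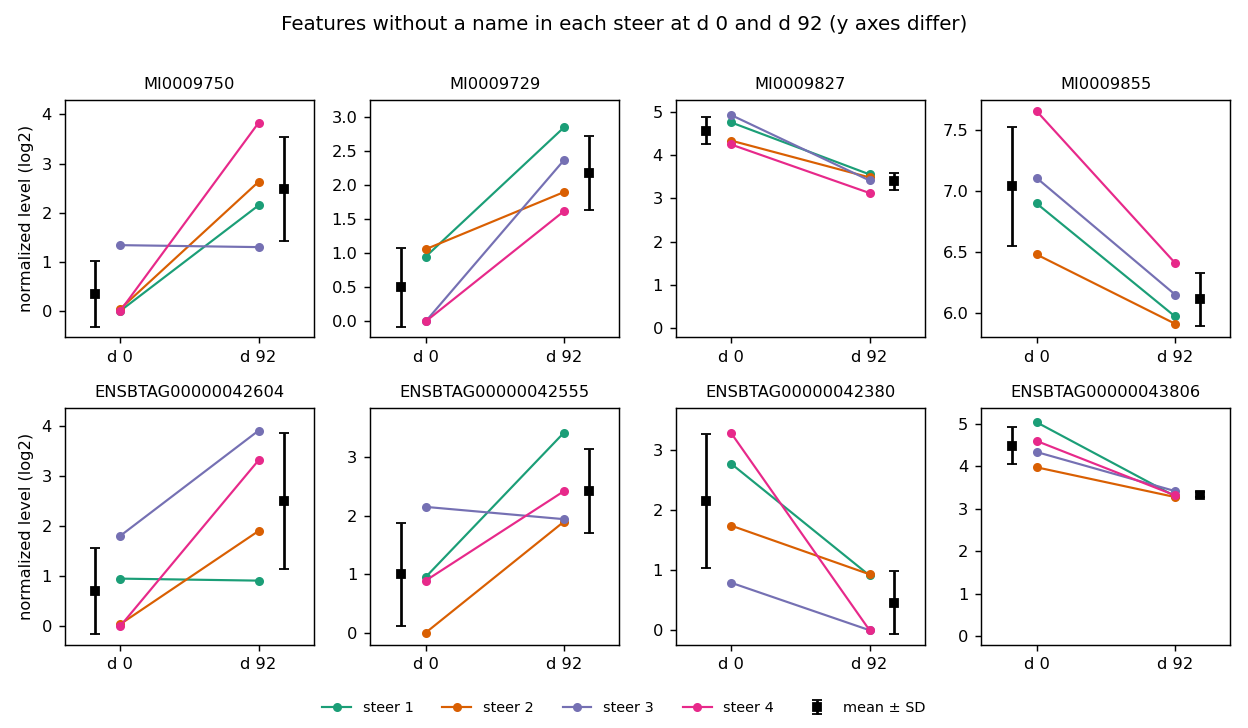
Levels of 4 miRBase features (top) and 4 Ensembl features (bottom) without a matched name at d 0 and d 92 (normalized level, log2, vertical axis, with a scale of its own in each panel), 1 line per steer, with squares for the mean and bars for the SD over 4 steers. MI0009827, MI0009855 and ENSBTAG00000043806 are lower in every steer without overlap, and the features that are higher have d 0 levels from the floor of 0 up to 2.15.

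Taken steer by steer, the change from d 0 to d 92 had no common direction. The median within-steer difference of the miRBase features was -0.47 in steer 4, -0.20 in steer 1, -0.02 in steer 2 and 0.13 in steer 3. In steer 4, 87 miRBase features were at least 2-fold lower and 19 at least 2-fold higher, and in steer 1 the numbers were 47 and 20. In steer 3 they were 21 and 37, and in steer 2 they were 26 and 52. Both directions together were 28.8%, 18.2%, 15.8% and 21.2% of the miRBase features tested in steers 4, 1, 3 and 2. Ensembl features were mirrored, with 112 at least 2-fold higher and 46 lower in steer 4 against 43 and 65 in steer 2. These were 24.9% and 17.0% of the Ensembl features tested. As both classes share a normalized distribution, the mirrored counts are not a separate result. At any size, more miRBase features were lower than higher in steers 1, 2 and 4, by 229 against 124, 188 against 162 and 246 against 100, and fewer in steer 3, by 131 against 214. The set-apart d 0 libraries of steers 1 and 4 enter these same differences. Across features, deviations from the mean of the time correlated at 0.04 to 0.22 between libraries of the same steer, beside -0.15 to 0.05 for different steers. Taking deviations from that mean lowers the values for different steers where those of the same steer are positive. The ranges are therefore not independent of each other.

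**Figure D5:**
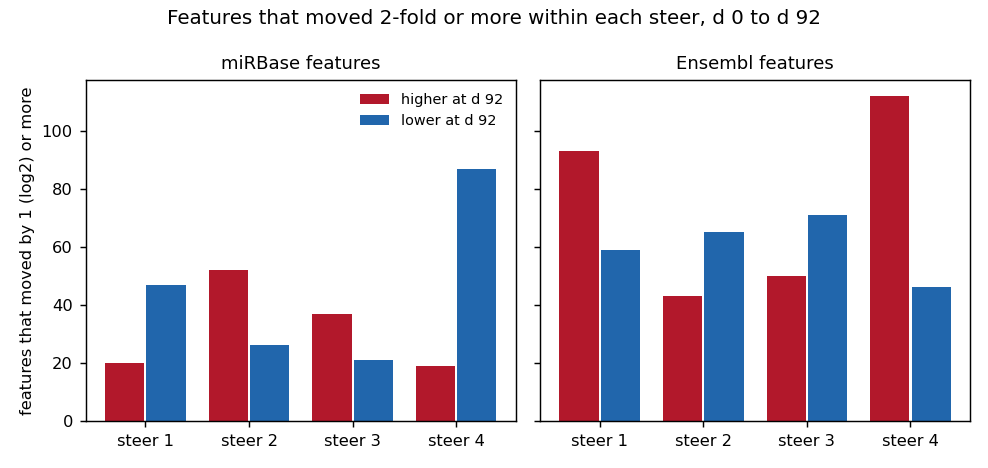
Bars give the number of tested miRBase (left) and Ensembl (right) features at least 1 (log2) higher or lower at d 92 than at d 0 within each steer. Steers 1 and 4 have more miRBase features lower than higher, 47 against 20 and 87 against 19, steers 2 and 3 have more higher than lower, and the Ensembl bars are reversed.

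The same steers were biopsied again at d 124, at another rib, and those libraries were set against the same d 0 libraries. Since both comparisons share their controls, the values are only placed side by side. For miR-144 the differences from d 0 were 1.54 at d 92 and 1.38 at d 124, and for miR-122 they were 1.47 and 0.48, so that the mean of miR-122 stood between d 0 and d 92 at the later time. Among the lower miRNAs, miR-449a differed by -1.51 and -1.68 and miR-1197 by -1.74 and -1.65, about as far from d 0 at both times, while miR-485 differed by -1.61 and -0.27. For miR-323 the values were -1.0 and -0.72. The feature with the smallest p at d 92, MI0009750, was at 2.13 and then 0.28, back near its d 0 level, whereas MI0009827 was at -1.17 and -1.04 and MI0009855 at -0.93 and -0.64. For miR-208b the differences were -0.43 and -0.97. In limma 0 of these had an adjusted p under 0.05 at d 124 against d 0. Set directly against d 92, the d 124 levels of MI0009750, miR-485 and miR-122 had limma adjusted p-values of 0.755, 0.988 and 0.988. MI0009750 was picked for its small p at d 92, so a smaller difference at d 124 can follow from that choice.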

How the data were processed

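Small RNA was sequenced on an Ion Torrent instrument from 12 longissimus libraries, 4 steers at d 0, d 92 and d 124. The authors aligned reads to bosTau4 and normalized them by the Quantile algorithm of StrandNGS. The deposited log2 values had each feature's median over 12 libraries subtracted by the authors, as the values show, and normalized values under 1 set to 1. Counting intervals are left out, because the table holds no counts and the study gives only a total and a minimum of raw reads. Base 2 was assumed for the logarithm, which gives recovered sums of 1479502 to 1524946 per library.

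The subtracted medians were recovered for 1298 of 1314 varying features by matching values to levels that features share within libraries after quantile normalization (tolerance 3e-06, at least 4 matching values). They serve for levels and the filter, and differences do not depend on them. For the 15 tested features whose median was not recovered, the lowest value of the feature stood in for the floor. Time was the single term of a limma fit (version 3.58.1, R 4.3.3) to the 12 libraries, with robust estimation and a trend of the spread. Benjamini-Hochberg adjustment was over the 1002 features tested. The trend ran along the mean of the deposited values, which have the median subtracted, and so not along the level. With the trend along the recovered level, the smallest limma adjusted p of the miRBase features was 0.946 instead of 0.595. Exact permutation tests were two-sided, over 70 regroupings, and their p-values are unadjusted. Recovery and fit were tested on simulated data. Of 1326 simulated features that varied, 1321 medians were found, all of them right. With normal noise of each feature's own spread, the fit called 11.0% of changes of 1 (log2) and 72.0% of changes of 2. In each simulation 20 features were changed at each size of 1, 2 and 3, which eases the Benjamini-Hochberg adjustment. The noise had no floor and no coarse steps, so these shares need not hold for features of low level. Most 2-fold changes would thus be missed, and the absence of features with an adjusted p under 0.05 does not show that none differ. Other steps used numpy 2.4.6 and pandas 2.3.3 under Python 3.11.15, and plots matplotlib 3.10.9.

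Libraries of the same replicate number are from the same steer, so the numbers pair them. Same-steer correlations of deviations from the time means had a median of 0.09. The study's analysis of variance had no steer term, and the fit with one is an alternative. Named were the miRNAs of the study's d 92 list, features with a name and an unadjusted p under 0.05, the 5 named features of highest level, list members, and at most 2 unnamed features in each direction and class by smallest p. Members, lists and this rule were chosen with earlier results of these data known. Names came from identifiers in the study's tables. The RefSeq gene table (ARS-UCD2.0) matched 0 identifiers and gave gene neighbors only.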

Additional observations from a re-analysis of the deposited data

Results flagged for a closer look

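Of 38 groups of 4 libraries, those of the singly described features at d 0 and d 92, 4 held a library far from the other 3. Dixon's gap test was used, which passes about 1 in 20 groups by chance, or 1.9 here, for independent normal values. The low levels of miR-449a, MI0009750 and MI0011438 are coarse, and MI0011438 was chosen after its values were seen. The count of 4 beside 1.9 is therefore not read further. At d 92, miR-122 of steer 4 stood at 13.36 with the others at 9.35, 9.46 and 9.95, and that library sets the size of the difference. At d 0, miR-449a of steer 4 stood at 3.28 with the others at 1.74, 1.80 and 1.92. In steer 3 at d 0, MI0009750 stood at 1.34 with the other steers at 0, 0 and 0.04, and MI0011438 at 2.66 with the other steers at 0.89, 0.95 and 1.06. Without steer 4 at d 0, a library with a high median miRBase feature, the difference of miR-449a was -1.14.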

How the results depend on the processing

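No feature of either kind had an adjusted p under 0.05 in limma under any of the 20 alternatives. Of 379 pairs of a described feature and an alternative, 375 kept the direction. Many of these pairs kept it by construction. Alternatives for the filter, the steer term, the spread, the classes fitted apart and the 8 libraries alone leave the difference itself unchanged. Many of the features were also picked for a small p in the same libraries, so this count is no measure of robustness. With the replicate block, a term for the steer, the unadjusted limits were met by 25 miRBase and 32 Ensembl features over 12 libraries, and by 18 and 23 over the 8 libraries, and among the features described singly the block over 12 libraries moved only miR-122 across an unadjusted p of 0.05.

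Without the d 0 libraries of steers 1 and 4 the miRBase count was 28 instead of 18, 22 of them higher, and the Ensembl count 36 instead of 27. Leaving out single libraries gave 17 to 24 miRBase and 18 to 41 Ensembl features, the lowest Ensembl count without steer 3 at d 92 and the highest without steer 2 at d 0. The difference of miR-2411 turned to -0.065 without both d 0 libraries and ranged from -0.093, without steer 1 at d 0, to 0.22 over single libraries left out. That of miR-362-5p ranged from -0.42 to 0.11, being 0.009 without steer 4 at d 0 and 0.11 without steer 3 at d 92. The number of features above the floor, d 92 minus d 0, went from -9.25 to 0.75 for miRBase and from -15.5 to 3.75 for Ensembl when at least 1 (log2) above the floor was required. The cause of these turns was not tested. All other alternatives for scaling, pseudocount, filter, spread and libraries gave 16 to 23 miRBase and 21 to 33 Ensembl features, and log2(value + 10) left out the 15 features without a recovered median. Chosen after seeing the data were the alternatives with equal medians in both classes, with a spread trend along recovered levels, and without both d 0 libraries.

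Limits: 4 steers, 1 library per steer and time, no group off concentrates, and side of the body, age and TOC that cannot be told apart. Levels under 2 are coarse, and fold changes of low features depend on the scale. With log2(value + 10), miR-323 differed by -0.66, MI0009827 by -0.72, ENSBTAG00000043806 by -0.70, miR-449a by -0.33, miR-1197 by -0.47, miR-485 by -0.46 and MI0009750 by 0.52, each over 1.5 times smaller, while miR-144 kept 1.54.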

Other observations

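Rows that are equal to another row in every library were 6 miRBase features in 3 sets and 43 Ensembl features in 18 sets, with 0 of them past an unadjusted limma p of 0.05. The 11 tested miRBase features without a recovered median differed by -0.47 to 0.47, and the 4 Ensembl ones by -0.03 to 0.28.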
